A study of Homo sapiens with 12 samples.

Results

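Raising and lowering the deubiquitinase USP22 in LNCaP prostate cancer cells moved 470 of 26076 tested genes in the same direction (1.8%). Of these, 345 were lower (1.32% of tested genes) and 125 were higher (0.479%) after both treatments. A gene was counted when 3 tests passed in 1 model of all 12 libraries: overexpression against its vector control, depletion against its shRNA control, and the sum of the 2 log2 fold changes, called here the joint contrast. Each test needed an adjusted p under 0.05 (edgeR, Benjamini-Hochberg), and both simple comparisons needed the same sign. The lower genes included smooth muscle and non-muscle actin cytoskeleton genes (ACTA2, ACTG2, MYL9, FLNA), androgen-regulated genes (KLK3, TRPM8), the secreted chaperone CLU and the interferon-induced GTPases GBP1 and GBP2. The higher genes included the potassium channel genes KCNJ3 and KCNQ5, the organic cation transporter gene SLC22A3 and the androgen-conjugating enzyme gene UGT2B17.

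USP22 is the ubiquitin-specific protease of the SAGA transcriptional coactivator complex and removes ubiquitin from histones and from other proteins. In prostate cancer it is known for its link to androgen-driven transcription and MYC. Overexpression and depletion are usually read as opposite treatments, and the genes described here are those that did not move in opposite directions. Some of the genes below belong to the programme of serum response factor (SRF), a transcription factor that binds a short AT-rich sequence named the CArG box and works with coactivators that respond to the pool of unpolymerised actin.

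LNCaP is an established, androgen-sensitive line of luminal prostate cancer, and all cells grew in hormone-proficient medium. The 4 groups of 3 libraries were cells with the pLPLUC vector, cells overexpressing USP22 (labelled USP22hi), cells with a control shRNA (shCON) and cells with the shRNA shUSP22-4693. Doxycycline (1 ug/mL, renewed each 48 hours over 5 days) was given to both shRNA groups and to neither of the others, so the control groups differ in vector and drug. Depletion rests on 1 shRNA sequence. Nothing in the labels tells whether the 3 libraries of a group came from separate cultures; the p-values therefore measure only the spread between libraries, which may be technical.

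The libraries held 77607469 to 103690001 counted reads. Luminal genes were abundant in all 12 libraries (KRT8 at 233 to 379 CPM, counts scaled by library size, and STEAP2 at 722.5 to 1308 CPM), while markers of other cells were at or near 0 in part. PECAM1 (endothelium), CD2 (T cells), KRT17 and LGALS7 (basal epithelium) and CDH2 (mesenchyme) had no read in any library, but VWF of the endothelial list reached 14.6 CPM, ITGA6 and DST of the basal list 83.3 and 62.1 CPM, and TWIST1 and VIM 9.79 and 7 CPM. Basal markers summed to 127.5 to 138.7 CPM in the vector control, 138.4 to 142.5 after overexpression, 133.2 to 137.9 in the shRNA control and 136.5 to 146 after depletion. Endothelial markers summed to 11.9 to 16.2, 12.75 to 13.8, 10.03 to 11.4 and 14.2 to 16.8 CPM in the same order, and markers of other epithelial lines to 12.96 to 13.3, 16.6 to 17.03, 19.9 to 21.97 and 19.5 to 21.2 CPM. Immune markers summed to 0.562 to 0.986 CPM over 5 tested genes, and fibroblast and smooth muscle markers to 12.2 to 15.9 CPM in the vector control, 13.2 to 14.9 after overexpression, 18.95 to 19.8 in the shRNA control and 15.96 to 20.2 after depletion, with COL1A2 at 0 in 11 libraries and DES in 9. The part of these lists in the results was not tested. Vector control replicate 3 stood apart: its SD from the mean of the other vector libraries was 0.308 on the log2 scale, where each other library had 0.0919 to 0.181, and its mitochondrial share was 0.691%, below the 1.04% to 1.53% elsewhere. USP22 followed the labels. It stood at 482, 491 and 565 CPM in the vector control and 1498, 1406 and 1495 CPM after overexpression, and at 479.6, 473 and 479.7 CPM in the shRNA control and 257, 265 and 251 CPM after depletion. The log2 fold changes were 1.52 and -0.89.

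The joint contrast alone called 4017 genes (15.4%), 1701 higher (6.52%) and 2316 lower (8.88%), but most of them were called in only 1 simple comparison. Of the 4017, 2552 were called on depletion and not on overexpression, 331 on overexpression and not on depletion, 645 in neither and 19 in both with opposite signs. A missing call does not show that a gene stayed still. The 2 estimates had the same sign in 3440 of the 4017, which a sum of 2 changes favours. Among these were 2037 of the 2552 and all 645. The simple comparisons called 1072 genes on overexpression (4.11%), 393 higher (1.51%) and 679 lower (2.6%), and 5172 on depletion (19.8%), 2450 higher (9.4%) and 2722 lower (10.4%). Genes called in both with opposite signs numbered 123 (0.472%). The plot of the 2 responses against each other shows the lower group as the denser of the same-direction groups.

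**Figure D1:**
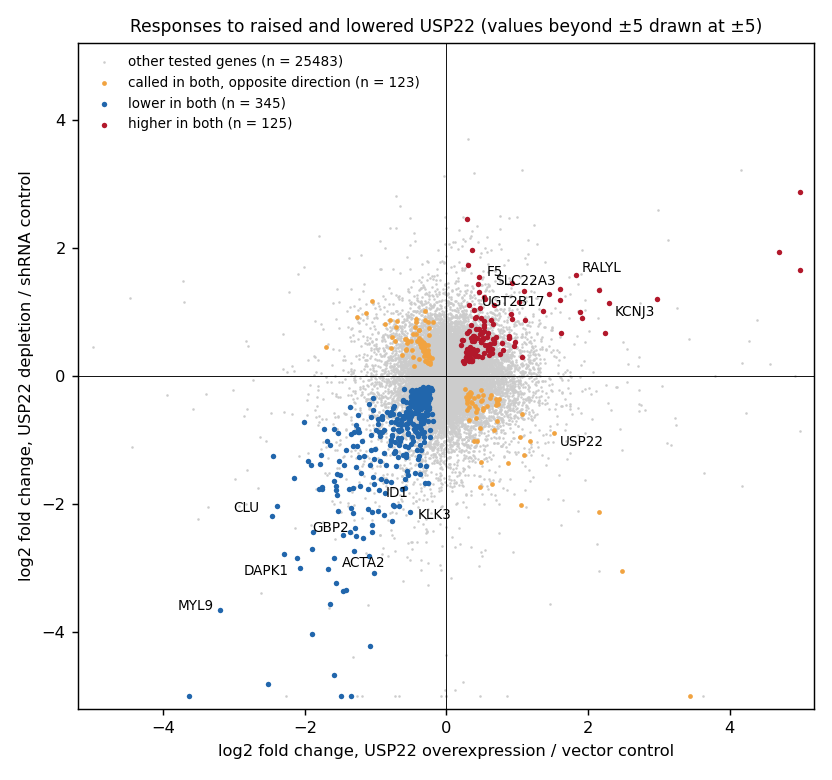
Log2 fold change on USP22 overexpression against the vector control (horizontal axis) and on USP22 depletion against the shRNA control (vertical axis) for every tested gene, 1 point per gene; values beyond 5 in either direction are drawn at the edge. The 345 genes lower in both lie at lower left and the 125 higher in both at upper right; USP22 itself lies at lower right.

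Among the 345 lower genes the median log2 fold change was -0.55 on overexpression and -0.76 on depletion, against -0.01 and 0.00 over all tested genes. At least a 1.5-fold fall in both comparisons was seen in 147 of them, and at least a 2-fold fall in 73. The size of the fall differed between the treatments in 95 genes by a test of the difference (10.9% of all tested genes passed it): 84 fell further on depletion and 11 further on overexpression. For the other 250 the difference was not called, which does not show that the falls were equal. Of the 125 higher genes, whose medians were 0.49 and 0.57, 28 rose at least 1.5-fold and 13 at least 2-fold in both, and the difference was called in 26, of which 21 rose further on depletion. Replicates of treated and control cells did not overlap in either comparison in 341 of the 345 lower and all 125 higher genes. Among all tested genes this held with the same sign in both for 7.42%, 4.65% lower and 2.77% higher. The rule picked the genes from these same libraries, so their medians and this separation follow from it and add no support.

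The number of genes depended on which libraries entered the fit, and the direction of the balance did not. It was 800 (574 lower, 226 higher) without vector control replicate 3, with 458 of the 470 among them, and 281 (212, 69), 272 (202, 70) and 312 (243, 69) without overexpression replicate 1, 2 and 3. With each comparison fitted on its own 6 libraries it was 201 (156, 45), of which 191 were among the 470. In all 12 fits that leave out 1 library, 209 genes were called again in the same direction, 166 lower and 43 higher. Genes described below were called again in every one of these fits and on their own 6 libraries unless another value is given.

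Ranked by the smaller of its 2 falls, CLU came first and DAPK1 second among named lower genes averaging at least 5 CPM. CLU (ENSG00000120885), the extracellular chaperone clusterin, had 27.03, 27.6 and 31.8 CPM in the vector control and 4.97, 4.93 and 5.75 after overexpression, with a log2 change of -2.47 (SE 0.09, edgeR adjusted p = 1.49e-10). In the shRNA control it had 21.01, 22.1 and 19.4 CPM and after depletion 4.59, 4.497 and 4.66, with a log2 change of -2.18 (SE 0.09, edgeR adjusted p = 1.71e-10). Both treatments brought CLU from separate control levels to about the same level, and treated and control libraries were far apart. In these bulk libraries fewer cells with a transcript and less of it per cell cannot be told apart. DAPK1 (ENSG00000196730), a calcium-regulated death-associated kinase, had 23.8, 21.4 and 24 CPM in the vector control, 5.75, 5.21 and 5.56 after overexpression, 8.34, 8.48 and 8.17 in the shRNA control and 1.31, 0.957 and 0.817 after depletion. Its log2 fold changes were -2.07 (SE 0.11, edgeR adjusted p = 6.51e-09) and -3.01 (SE 0.13, edgeR adjusted p = 1.75e-10), and the fall was larger on depletion (edgeR adjusted p of the difference = 0.00141). The overexpressing cells, although lower than their own control, overlapped neither shRNA group and lay between them.

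Other genes ranked high by the same measure had varied roles. TMSB4X, the actin-monomer-binding peptide thymosin beta, fell from 29.97 ± 2.19 to 10.3 ± 0.635 CPM on overexpression and from 23.96 ± 1.59 to 5.52 ± 0.283 CPM on depletion (SD, n = 3 each; edgeR adjusted p = 6.51e-09 and 1.54e-10). CRIP2, a LIM-domain protein, fell to 0.348 and 0.396 of control. The desmosomal cadherin DSC3 fell to 0.338 and 0.2899, the cell-surface peptidase DPP4 to 0.341 and 0.303, ZNF608 to 0.3899 and 0.185, and the cancer-testis antigen MAGEA4 to 0.375 and 0.0982 of control. DSC3, DPP4 and MAGEA4 were also much lower in the shRNA control than in the vector control, so their level after overexpression lay above that of the shRNA control: DPP4 had 17.3 ± 0.0218 CPM after overexpression and 9.25 ± 0.417 CPM in the shRNA control. The immediate early gene FOS had log2 fold changes of -1.51 and -1.55, but with 8.19, 8.104 and 3.67 CPM in the vector control its vector control libraries were far apart, and its overexpression call ended on its own 6 libraries (edgeR adjusted p = 0.0812).

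**Figure D2:**
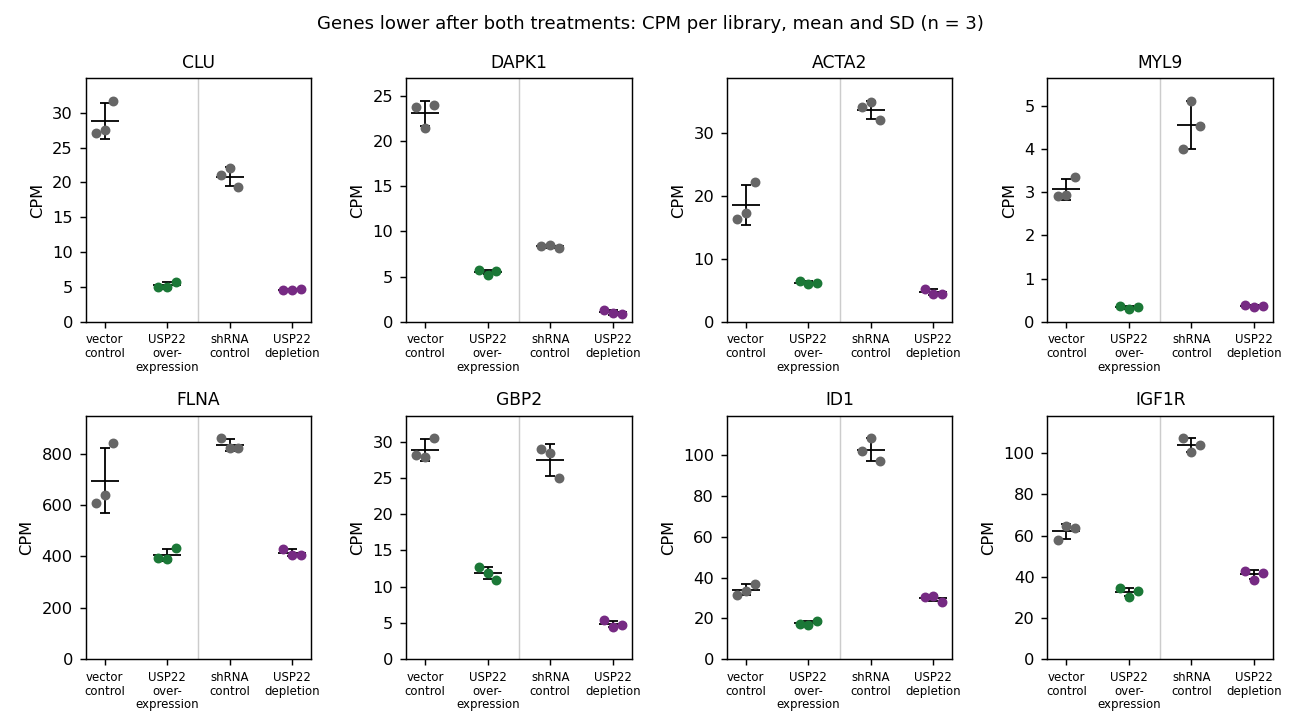
CPM of 8 genes lower after both treatments, with 1 point per library and a bar at the mean ± SD of each group (n = 3); every vertical axis starts at 0, and the line separates the 2 comparisons. In each panel the treated libraries lie below all libraries of their own control. The control levels lie far apart in ID1 (33.95 against 102.7 CPM) and close together in GBP2 (28.85 against 27.47 CPM).

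The list of contractile and cytoskeletal targets of SRF and of the YAP coactivator had the largest share of same-direction genes. Among its members not lower in both was the YAP target CCN2, described below with others. Of 28 tested members 14 were lower in both comparisons and none was higher (edgeR; also 0 higher by DESeq2, by limma voom and with no adjustment at p under 0.05), against 1.32% lower among all tested genes. The 14 were the smooth muscle actins ACTA2 and ACTG2, the myosin light chain MYL9 and heavy chain MYH9, the tropomyosins TPM1, TPM2 and TPM4, the calponin CNN2, the actin crosslinker FLNA, the focal adhesion protein VCL, the LIM protein FHL2, the angiomotin-like AMOTL1 and AMOTL2, and SRF itself. The median log2 fold change of the 28 genes was -0.40 on overexpression and -0.53 on depletion. Separately, 15 members fell on overexpression and 19 on depletion (2.6% and 10.4% of all tested genes did), and 1 rose, AJUBA on depletion. The count lower in both was 18 without vector control replicate 3 and 11 with each comparison on its own 6 libraries, and it was 12 to 15 without any other single library. The calls of SRF (edgeR adjusted p up to 0.124, without overexpression replicate 2) and VCL (up to 0.0933, without overexpression replicate 3) ended in 5 of the 12 fits without 1 library each. For SRF these were the fits without overexpression replicate 1 or 2, shRNA control replicate 2 or 3 or depletion replicate 3, and for VCL those without any 1 overexpression replicate, shRNA control replicate 1 or depletion replicate 1. The calls of SRF, VCL and AMOTL2 also ended on their own 6 libraries (0.187, 0.153 and 0.0522). Without vector control replicate 3 the overexpression value of SRF was -0.25 in place of -0.39.

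The CArG box was searched for in the 250 bases before the annotated start of each gene (RefSeq, GRCh38.p14; both strands). It was found in 12 of 257 lower genes with a promoter entry (4.67%), in 0 of 95 higher genes and in 143 of 13511 tested genes with an entry (1.06%). Of the 13 lower contractile genes with an entry, 6 held it: ACTG2, FLNA, CNN2, TPM4, FHL2 and SRF. That list was made of SRF and YAP targets, so a high share with the box was likely whichever members fell. These 6 are among the 12, and the share among list members that were not lower was not taken. The other lower genes that held the box were GBP1, CAPN13, FLG, MYO1E, LMNTD1 and MYL7. The last 4 lost their call on their own 6 libraries (edgeR adjusted p = 0.0517, 0.0546, 0.143 and 0.209). LMNTD1 kept it in 2 of the 12 fits without 1 library, those without vector control replicate 3 or depletion replicate 2 (up to 0.184), and MYL7 in 3, those without vector control replicate 2, overexpression replicate 3 or depletion replicate 3 (up to 0.177). Shares of other motifs among lower genes and all genes were 3.5% and 4.37% for AP-1 (TGANTCA), 12.1% and 9.94% for the TEAD core (GGAATG), 9.34% and 8.53% for the androgen response core (AGAACA) 26.5% and 23.9% for the GC-rich SMAD element (GGCGCC) and 10.1% and 6.7% for the TATA box (TATAAA), which 15.8% of higher genes held. The motifs were chosen with the results known, and a match is a run of letters, not a shown binding site. The promoters of 4 lower genes with a CArG box are printed to show where the box lies. Each is written on the strand of the gene, with the box in capitals and the last base next to the annotated start. ACTG2 is at chr2:73892758-73893007 on the plus strand, FLNA at chrX:154374635-154374884 on the minus strand, CNN2 at chr19:1026358-1026607 and TPM4 at chr19:16067288-16067537, both on the plus strand.
ACTG2: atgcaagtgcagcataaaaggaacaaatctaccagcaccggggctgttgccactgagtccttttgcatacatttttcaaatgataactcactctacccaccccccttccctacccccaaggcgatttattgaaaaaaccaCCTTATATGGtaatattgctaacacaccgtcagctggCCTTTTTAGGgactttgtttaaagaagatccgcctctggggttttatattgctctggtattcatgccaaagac
FLNA: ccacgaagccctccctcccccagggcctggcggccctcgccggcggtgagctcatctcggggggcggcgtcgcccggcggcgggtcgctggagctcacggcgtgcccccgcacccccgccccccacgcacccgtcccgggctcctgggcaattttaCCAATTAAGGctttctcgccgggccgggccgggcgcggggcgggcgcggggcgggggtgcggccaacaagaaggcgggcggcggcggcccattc
CNN2: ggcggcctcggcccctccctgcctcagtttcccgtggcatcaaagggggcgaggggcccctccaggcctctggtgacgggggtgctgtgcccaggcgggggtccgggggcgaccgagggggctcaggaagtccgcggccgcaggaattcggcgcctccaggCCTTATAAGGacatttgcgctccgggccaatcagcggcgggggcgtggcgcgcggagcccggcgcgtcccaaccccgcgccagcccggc
TPM4: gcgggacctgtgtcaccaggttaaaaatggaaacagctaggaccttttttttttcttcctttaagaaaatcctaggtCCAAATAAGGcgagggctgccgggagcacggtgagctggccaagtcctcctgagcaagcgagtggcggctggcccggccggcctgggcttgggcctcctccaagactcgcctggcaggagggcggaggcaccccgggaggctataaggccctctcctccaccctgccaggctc
The ACTG2 promoter held 2 boxes, with 100 and 63 bases between box and start, and FLNA, CNN2 and TPM4 held 1 each, with 84, 79 and 163 bases in between. SRF, whose promoter is not printed, also held 2.

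The contractile genes covered a wide range of expression in these epithelial cells. MYH11, the heavy chain of smooth muscle myosin, had at most 1.6 CPM in any library, and the summed fibroblast and smooth muscle markers given above overlapped between overexpressing and vector control cells and between depleted and shRNA control cells; their part in the result was not tested. MYL9 (ENSG00000101335) had the deepest fall of the list from a low level, with 2.92, 2.95 and 3.36 CPM in the vector control, 0.356, 0.292 and 0.3499 after overexpression, 4.01, 5.13 and 4.54 in the shRNA control and 0.378, 0.3396 and 0.361 after depletion. On the log2 scale MYL9 changed by -3.20 (SE 0.16, edgeR adjusted p = 4.51e-09) and -3.66 (SE 0.15, edgeR adjusted p = 1.71e-10). The 6 treated libraries together spanned a narrow band far below all 6 control libraries. ACTA2 had 16.3, 17.3 and 22.2 CPM in the vector control, 6.43, 6.02 and 6.19 after overexpression, 34.2, 34.95 and 32.2 in the shRNA control and 5.28, 4.42 and 4.46 after depletion. ACTA2 changed on the log2 scale by -1.58 (SE 0.11, edgeR adjusted p = 1.44e-07) and -2.84 (SE 0.11, edgeR adjusted p = 1.54e-10). The fall was larger on depletion, from a higher control (edgeR adjusted p of the difference = 6.63e-05), and here too the treated groups ended close to each other.

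ACTG2, whose promoter has the 2 boxes above, had 1.88, 2.02 and 1.55 CPM in the vector control, 0.5702, 0.5597 and 0.862 after overexpression, 2.37, 2.26 and 2.42 in the shRNA control and 0.429, 0.391 and 0.433 after depletion (log2 fold changes -1.46 and -2.49; edgeR adjusted p = 0.000111 and 1e-07). TPM2 fell to 0.411 and 0.373 of control (edgeR adjusted p = 0.00579 and 0.000562). MYL9, ACTA2, ACTG2 and TPM2 had the deepest falls among the 14, and the 3 most abundant, MYH9, FLNA and VCL, fell by smaller factors. The actin genes are near-identical in sequence, and tropomyosin genes and TMSB4X have close copies, so the split of reads among such copies is uncertain.

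FLNA, CNN2, TPM4, MYH9, TPM1, FHL2 and AMOTL1 were chosen for description after their values were seen. FLNA, which crosslinks actin filaments, had 607, 639 and 841 CPM in the vector control and 395, 391 and 432 after overexpression, with a log2 change of -0.78 (SE 0.09, edgeR adjusted p = 8.71e-05). In the shRNA control it had 862, 822 and 823 CPM and after depletion 429.6, 405 and 408, with a log2 change of -1.01 (SE 0.09, edgeR adjusted p = 1.2e-06). Vector control replicate 3 was the highest vector library, and both treated groups lay below every control library. CNN2 had 56.4, 59.8 and 67.01 CPM in the vector control, 35.3, 34.5 and 38.04 after overexpression, 70.9, 68.8 and 72.3 in the shRNA control and 37.1, 36.1 and 36.96 after depletion, so that the 2 treated groups again overlapped in level (log2 fold changes -0.76 and -0.94). TPM4 went from 171 ± 1.33 to 137 ± 3.41 CPM on overexpression and from 148 ± 5.97 to 93.04 ± 4.9 CPM on depletion, with the larger fall on depletion (edgeR adjusted p of the difference = 0.00897). MYH9, non-muscle myosin, went from 856 ± 151 to 575 ± 27.2 CPM and from 812 ± 10.5 to 551 ± 9.12 CPM, and TPM1 fell to 0.755 and 0.808 of control. FHL2 fell to 0.603 and 0.4904, and AMOTL1 to 0.62 and 0.511.

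**Figure D3:**
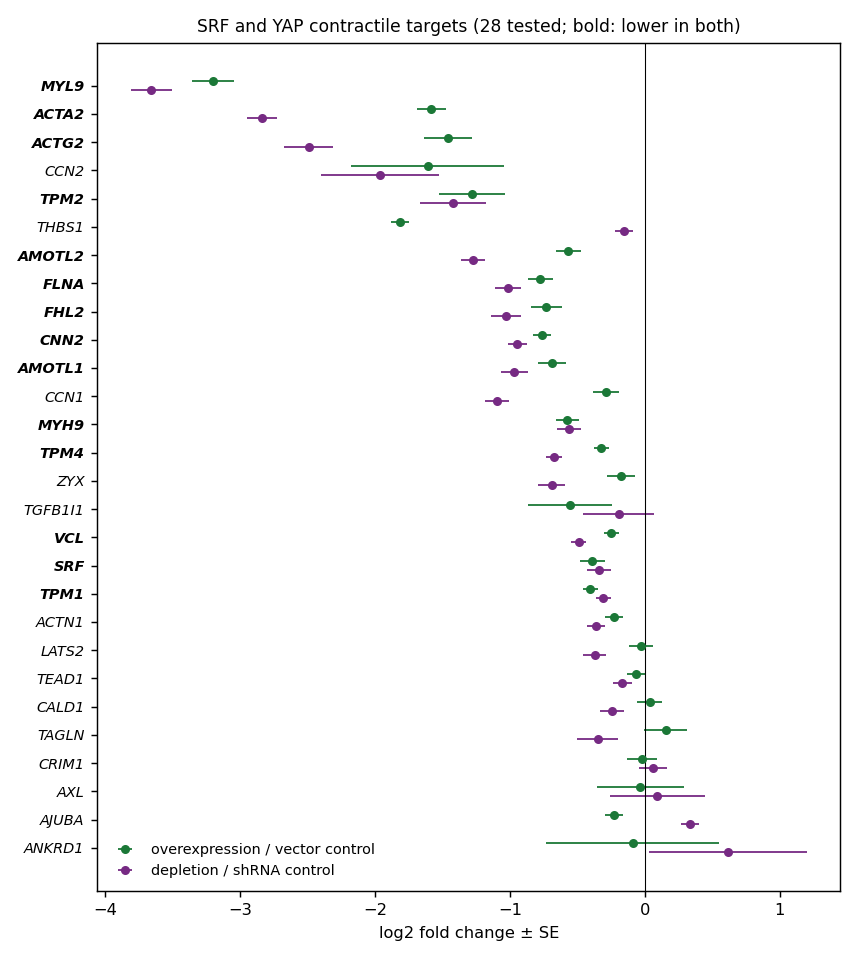
Log2 fold change ± standard error of the 28 tested SRF and YAP contractile targets on overexpression against the vector control (green) and on depletion against the shRNA control (purple), ordered by their sum. The 14 genes in bold were lower in both comparisons; THBS1 fell on overexpression (-1.82) with a value near 0 on depletion (-0.16), and AJUBA lies on opposite sides of 0.

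Not all targets of the list moved together. THBS1, a matrix glycoprotein, fell on overexpression by a log2 change of -1.82 (SE 0.07, edgeR adjusted p = 1.7e-10) and had -0.16 on depletion (edgeR adjusted p = 0.124, but 0.0265 without vector control replicate 3; -0.07 without depletion replicate 2), from 29.8 ± 1.32 CPM in a shRNA control that already stood near the overexpressing cells at 33.5 ± 0.678 CPM. CCN1, CCN2, LATS2, CRIM1, AXL, ANKRD1 and TAGLN were chosen after their values were seen. None was called on overexpression in the fit of all 12 libraries. The YAP target CCN2 had log2 fold changes of -1.61 (SE 0.57, edgeR adjusted p = 0.132) and -1.96 (SE 0.44, 0.00441). CCN2 averaged only 0.29 CPM, with 0, 0.097 and 0.138 CPM after overexpression. CCN1 had -0.29 (edgeR adjusted p = 0.106) and -1.10 (3.8e-07), and LATS2 had -0.03 (0.903) and -0.37 (0.00478). Neither change was called for CRIM1 (-0.02 and 0.06), AXL (-0.03 and 0.09) or ANKRD1 (-0.09 and 0.62). TAGLN had 0.15 (0.649) and -0.35 (0.132).

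Genes of the extracellular matrix and its integrin receptors were lower in both in 5 of 41 tested cases, and none was higher (edgeR; 1 higher at an unadjusted p under 0.05, and 0 by limma voom and DESeq2). COL12A1, a fibril-associated collagen, had 6.39, 5.59 and 5.102 CPM in the vector control, 1.56, 1.86 and 1.62 after overexpression, 15.3, 13.8 and 14.9 in the shRNA control and 4.27, 4.64 and 4.28 after depletion. Its log2 fold changes, -1.76 and -1.74, were not called different (edgeR adjusted p = 0.941), although the shRNA control lay well above the vector control. The laminin chains LAMA3 (log2 fold changes -0.55 and -0.90) and LAMC1 (-0.37 and -1.08) fell further on depletion (edgeR adjusted p of the difference = 0.00644 and 6.55e-05). The collagen-binding integrin ITGA1 fell further on overexpression (-1.34 and -0.91; 0.0401). The fifth, COL4A5, had -0.27 and -0.23 and was called in 3 of the 12 fits without 1 library, those without a vector control replicate (edgeR adjusted p up to 0.144, without shRNA control replicate 1). The list's medians were -0.17 and -0.29, and its count was 9 without vector control replicate 3.

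Androgen-regulated genes were lower in both in 9 of 32 tested cases and higher in none (edgeR; also 0 higher by DESeq2, by limma voom and with no adjustment at p under 0.05), with medians of -0.09 and -0.31. The count was 12 without vector control replicate 3, 6 without any 1 overexpression replicate and 5 on the own 6 libraries. KLK3, which encodes prostate-specific antigen, had 1155, 1172 and 1413 CPM in the vector control, 863, 856 and 903 after overexpression, 1464, 1426 and 1394 in the shRNA control and 330.4, 358 and 290.4 after depletion. Its fall was far larger on depletion (-2.13) than on overexpression (-0.51; edgeR adjusted p of the difference = 4.07e-07). The cold- and menthol-sensing channel TRPM8 fell to 0.384 and 0.292 of control, from 40.3 ± 2.05 and 19.7 ± 0.961 CPM, with a larger fall on depletion (difference 0.0381). BMPR1B, a BMP receptor, fell further on overexpression (-2.01) than on depletion (-0.73; difference 0.000951), where the shRNA control was already low at 1.099 ± 0.0531 CPM against 5.58 ± 0.862 in the vector control. NDRG1, a stress-induced differentiation gene, fell to 0.637 and 0.556, and HERC3, a ubiquitin ligase named after its values were seen, to 0.7698 and 0.716 of control. The other 4, PMEPA1, MAF, AZGP1 and STK39, were not called on overexpression in their own 6 libraries (edgeR adjusted p = 0.227, 0.12, 0.101 and 0.121). AZGP1 and STK39 also lost the call without any 1 overexpression replicate (up to 0.0852 and 0.0706), and PMEPA1 kept it in 2 of the 12 fits, those without vector control replicate 1 or 3 (up to 0.204, without overexpression replicate 2).

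IGF1R, the receptor of insulin-like growth factors, had 57.8, 64.6 and 63.95 CPM in the vector control, 34.3, 30.4 and 32.9 after overexpression, 108, 101 and 104 in the shRNA control and 42.9, 38.7 and 42.1 after depletion. Its log2 fold changes were -0.93 (SE 0.07, edgeR adjusted p = 3.48e-07) and -1.34 (SE 0.07, edgeR adjusted p = 1.48e-09), and each treated group lay below its own control without overlap, with a larger fall on depletion (edgeR adjusted p of the difference = 0.0122). IGFBP3, which binds those growth factors, had -0.54 and -1.54, with an overexpression call that ended on its own 6 libraries (edgeR adjusted p = 0.051). Of 25 tested genes of the insulin and IGF axis, 3 were lower in both, and 1, IGF1R, on the own 6 libraries. The third was HTRA1, which kept its call in 2 of the 12 fits without 1 library, those without vector control replicate 3 or overexpression replicate 3 (edgeR adjusted p up to 0.164, and 0.2 on its own 6 libraries). None was higher (edgeR; 1 at an unadjusted p under 0.05, 1 by DESeq2, 0 by limma voom). The ephrin receptor EPHA2 fell to 0.591 and 0.247 of control, and the WNT receptor FZD4 to 0.643 and 0.588. AGR2, a protein disulfide isomerase of secretory epithelium, fell from 25 ± 1.7 to 12.1 ± 0.51 CPM and from 43.04 ± 3.94 to 8.59 ± 1.49 CPM.

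Targets and feedback inhibitors of BMP and TGF beta signalling were lower in both in 6 of 24 tested cases and higher in 1, with medians of -0.09 and -0.54. ID1, a helix-loop-helix inhibitor induced by BMP signals, had 31.6, 33.2 and 37 CPM in the vector control, 17.03, 16.7 and 18.9 after overexpression, 102, 109 and 97.2 in the shRNA control and 30.4, 30.7 and 28.1 after depletion. Its log2 fold changes were -0.95 (SE 0.08, edgeR adjusted p = 1.03e-06) and -1.79 (SE 0.08, edgeR adjusted p = 1.91e-10), larger on depletion (edgeR adjusted p of the difference = 0.000109). After depletion ID1 stood just below the vector control, and the shRNA control stood far above the vector control (log2 difference 1.60). ID2 (-0.54 and -0.89) and ID3 (-0.57 and -1.24) moved likewise, as did the inhibitory SMAD genes SMAD6 (-0.46 and -0.83) and SMAD7 (-0.41 and -1.16), but for these 4 the overexpression call ended on its own 6 libraries (edgeR adjusted p = 0.0519, 0.063, 0.0645 and 0.114). It also ended without overexpression replicate 2 for SMAD6 (0.0532) and SMAD7 (0.0548), and without overexpression replicate 1 for SMAD7 (0.0814). The higher gene was the pseudoreceptor BAMBI (0.28 and 0.37; edgeR adjusted p = 0.078 on its own 6 libraries), which also lost its call without vector control replicate 2 or any 1 overexpression replicate (up to 0.116). BAMBI was chosen after its values were seen. On those libraries the list's count was 1 lower, ID1, and 0 higher by edgeR (on all 12 libraries 1 higher by DESeq2, by limma voom and at an unadjusted p under 0.05). It was 3 lower without overexpression replicate 2.

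Of 32 tested apoptosis regulators 7 were lower in both and 1 was higher, TNFSF10, which encodes the death ligand TRAIL (0.58 and 0.48). All 3 death-associated protein kinase genes were among the lower ones. Beside DAPK1 these were DAPK3 (-0.50 and -0.63) and DAPK2 (-0.35 and -0.45), with overexpression calls that ended on their own 6 libraries (edgeR adjusted p = 0.108 and 0.161). DAPK2 also lost its call without overexpression replicate 1 or 3 or depletion replicate 1 (up to 0.0964), and TNFSF10 lost its call on its own 6 libraries (0.0528) and without overexpression replicate 1 or 3, shRNA control replicate 1 or 2 or depletion replicate 2 (up to 0.0973). DAPK2 and TNFSF10 were chosen after their values were seen. The BCL2-family gene BOK fell to 0.602 and 0.436 of control. The list holds genes that promote and genes that restrain cell death. Its count of lower genes was 3 on the own 6 libraries and 4 without overexpression replicate 1 or 3.

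Interferon-induced GTPases fell in both, while most of the interferon list did not. GBP2 had 28.2, 27.9 and 30.5 CPM in the vector control, 12.7, 11.9 and 10.98 after overexpression, 29.03, 28.4 and 24.99 in the shRNA control and 5.33, 4.49 and 4.69 after depletion. GBP2 had log2 fold changes of -1.28 (SE 0.09, edgeR adjusted p = 1.24e-07) and -2.51 (SE 0.09, edgeR adjusted p = 8.1e-11), from control levels that overlapped. GBP1 fell to 0.485 and 0.184 of control, and both falls were larger on depletion (edgeR adjusted p of the difference = 1.24e-05 for GBP2 and 1.71e-05 for GBP1). These 2 genes are neighbours of 1 family with similar sequences, so reads may be shared between them. Of 47 tested interferon-stimulated genes, 3 were lower in both, the third being PARP14 (log2 fold changes -0.45 and -0.86; edgeR adjusted p = 0.056 on overexpression without overexpression replicate 3 and 0.109 on its own 6 libraries). None was higher (edgeR; 1 at an unadjusted p under 0.05, and 0 by limma voom and DESeq2). The list's medians were 0.02 and -0.28, and 22 of its members were called lower on depletion and 3 on overexpression (10.4% and 2.6% of all tested genes were).

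Of 21 tested genes of the neuroendocrine and neuronal list, DDC, SYT4 and ENO2 were lower in both and 1 was higher (4.76%, against 0.479% of all tested genes). DDC, the aromatic amino acid decarboxylase, had 68.95, 65.03 and 64.7 CPM in the vector control, 22.8, 22.95 and 22.5 after overexpression, 14.3, 13.97 and 11.9 in the shRNA control and 3.53, 3.85 and 3.65 after depletion. The log2 fold changes were -1.54 and -1.86, with no difference called (edgeR adjusted p = 0.067), and the shRNA control was already below the overexpressing cells. SYT4, a synaptotagmin, went from 588 ± 69.5 to 319.9 ± 15.6 CPM on overexpression and from 165 ± 14.1 to 36.2 ± 2.87 CPM on depletion, a larger fall (edgeR adjusted p of the difference = 7.82e-06). ENO2, the neuronal enolase, fell to 0.6604 and 0.636 of control, and here the shRNA control had 22.9 ± 0.513 CPM against 7.802 ± 0.543 in the vector control.

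Potassium channel and neuronal genes were among the larger rises. KCNJ3, a G protein-gated inward rectifier channel, had 13.4, 12.8 and 10.6 CPM in the vector control, 58.1, 65.1 and 57.1 after overexpression, 46.7, 46.9 and 38.97 in the shRNA control and 95.7, 99.02 and 95.6 after depletion. The log2 changes of KCNJ3 were 2.29 and 1.13, with the larger rise on overexpression (edgeR adjusted p of the difference = 2.98e-05). RALYL, an RNA-binding protein of the nervous system, rose 3.57-fold from 6.503 ± 0.998 CPM and 2.96-fold from 13.95 ± 0.692 CPM, and RIMS1, a scaffold of the synaptic active zone, rose 1.502-fold and 1.58-fold.

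**Figure D4:**
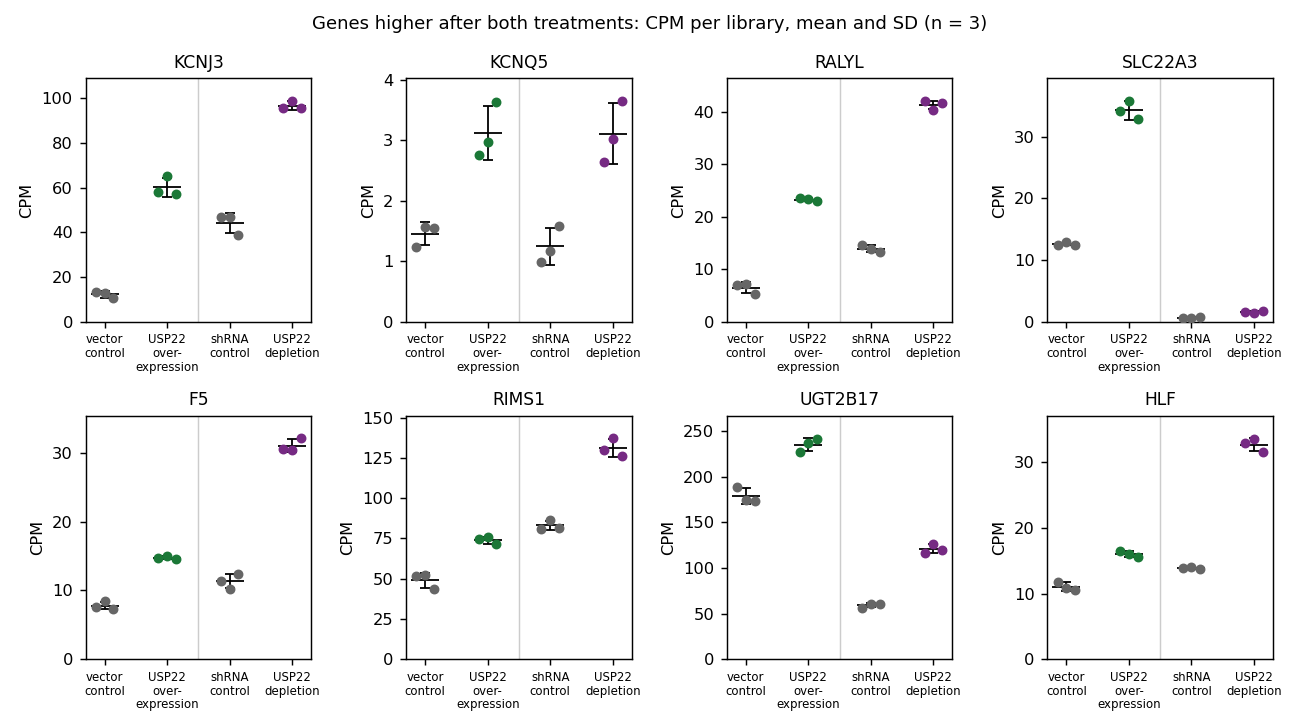
CPM of 8 genes higher after both treatments, with 1 point per library and a bar at the mean ± SD of each group (n = 3); every vertical axis starts at 0, and the line separates the 2 comparisons. In each panel the treated libraries lie above all libraries of their own control; SLC22A3 is near 0 in both shRNA groups, while KCNJ3 is highest after depletion.

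Further genes, some of them better known from neurons, were among the higher ones, and others of the channel and axon guidance lists were among the lower ones. KCNQ5, a voltage-gated potassium channel, rose 2.15-fold and 2.49-fold, the transmembrane protein TMEFF2 1.48-fold and 1.53-fold (edgeR adjusted p = 3.43e-06 and 4.07e-07), ADAM23 1.45-fold and 1.69-fold, and the ephrin receptor EPHA3 1.41-fold and 1.47-fold. In contrast the potassium channel KCNH2 (log2 fold changes -1.07 and -1.16), the netrin receptor UNC5C (-1.96 and -1.33) and the membrane-anchored netrin NTNG1 (-1.23 and -1.26) fell in both. Of 39 tested ion channel genes 2 were higher and 4 lower in both, and of 42 axon guidance genes 2 were higher and 4 lower. Without any 1 overexpression replicate 2 channel genes were lower, as on the own 6 libraries. Without overexpression replicate 2 or 3 the axon guidance count was 2 lower, and without any 1 overexpression replicate 1 higher. SLITRK6, a neuronal adhesion gene, rose 1.46-fold and 2.295-fold, but its overexpression call ended without any 1 overexpression replicate (edgeR adjusted p = 0.0681 to 0.115) and on its own 6 libraries (0.208), and without vector control replicate 3 its log2 fold change was 0.35 in place of 0.54.

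Enzymes that act on steroids, lipids and retinoids supplied another group of the higher genes. Of 26 tested UDP-glucuronosyltransferase and steroid enzyme genes 5 were higher in both, 19.2% against 0.479% of all genes, and 1 was lower. UGT2B17, which conjugates androgens to glucuronic acid, had 189, 175 and 173 CPM in the vector control, 228, 237 and 242 after overexpression, 56.5, 60.3 and 60.7 in the shRNA control and 117, 127 and 119.8 after depletion. The log2 changes of this gene were 0.40 (SE 0.06, edgeR adjusted p = 0.000686) and 1.03 (SE 0.06, edgeR adjusted p = 5.18e-09). The rise was larger on depletion (edgeR adjusted p of the difference = 0.000131), yet the depleted cells remained below the vector control. Its paralogs UGT2B15 (0.31 and 1.73), UGT2B10 (0.35 and 1.96) and UGT2B11 (0.30 and 2.45) moved much more on depletion. Their overexpression calls ended on their own 6 libraries (edgeR adjusted p = 0.163, 0.198 and 0.212), and the split of reads between these close paralogs is uncertain. UGT2B15 also lost its call without overexpression replicate 2 (0.136) or 3 (0.108). UGT2B10 kept it in 5 of the 12 fits, those without a vector control replicate or without shRNA control replicate 1 or 2 (up to 0.152), and UGT2B11, chosen after its values were seen, in 3, those without vector control replicate 2 or 3 or depletion replicate 3 (up to 0.138). The list's count of higher genes was 2 on the own 6 libraries, 2 without overexpression replicate 2 or 3 and 3 without overexpression replicate 1, shRNA control replicate 3, depletion replicate 1 or depletion replicate 2. RDH10, a retinol dehydrogenase, rose 1.43-fold and 1.501-fold.

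Among 34 tested genes of cholesterol and fatty acid synthesis 3 were higher in both and 1 was lower. ELOVL6, which elongates saturated fatty acids, had 61.2, 59.9 and 53.4 CPM in the vector control, 89.6, 86.6 and 89.6 after overexpression, 44.9, 44.6 and 47.5 in the shRNA control and 59.8, 65.2 and 63.5 after depletion. Its log2 fold changes were 0.61 and 0.46, and no treated library overlapped its own controls. HSD17B7, of cholesterol and steroid synthesis, rose 1.29-fold and 1.28-fold. Other rises were those of the coagulation factor gene F5 (1.898-fold and 2.74-fold), the circadian-regulated transcription factor HLF (1.45-fold and 2.35-fold) and PIGR, the receptor that carries polymeric immunoglobulins across epithelia (1.44-fold and 1.73-fold). SLC22A3, an organic cation transporter, rose from 12.6 ± 0.228 to 34.3 ± 1.51 CPM and from 0.649 ± 0.118 to 1.58 ± 0.195 CPM. Its rises were 2.72-fold and 2.41-fold, with no difference called (edgeR adjusted p = 0.567), although the shRNA lines held little of this transcript.

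**Figure D5:**
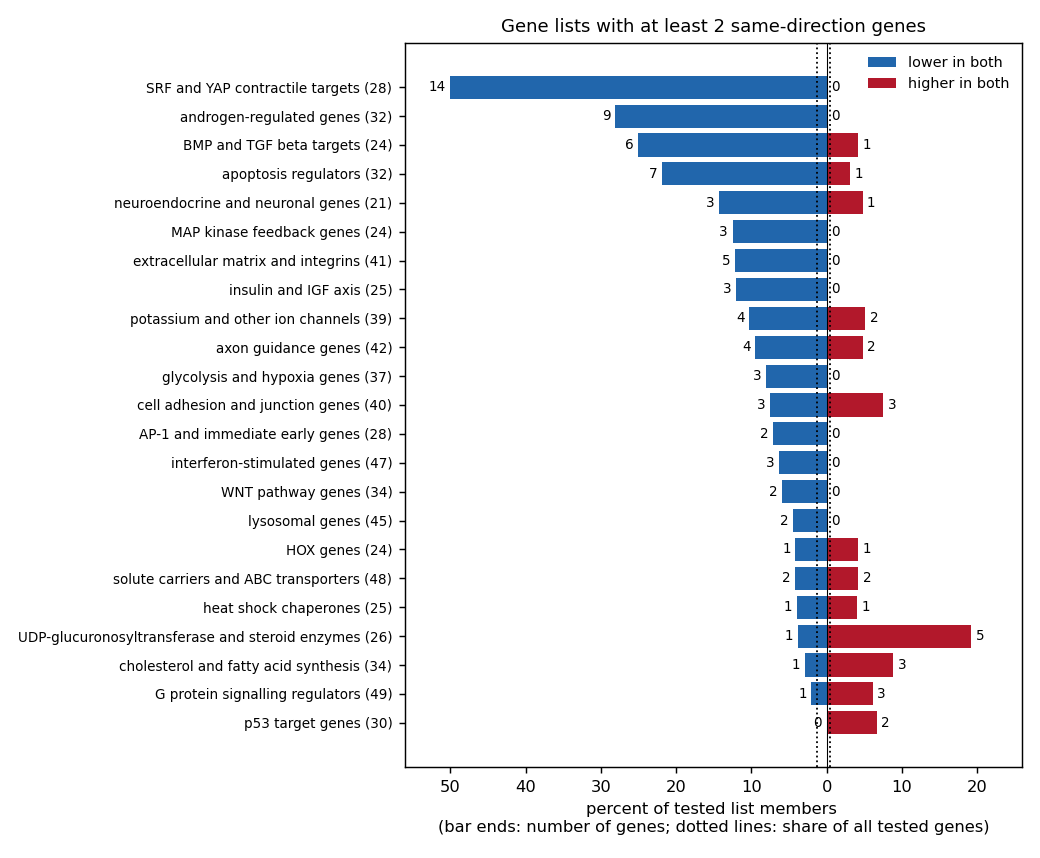
Share of the tested members of each gene list that were lower in both comparisons (blue, to the left) or higher in both (red, to the right), for lists with at least 2 such genes; list sizes are in parentheses, gene numbers stand at the bar ends, and dotted lines mark the shares of all tested genes (1.32% and 0.479%). The contractile list reaches 50% on the lower side and the steroid enzyme list 19.2% on the higher side.

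Lists of proliferation and growth genes held no same-direction gene by edgeR, although many of their members changed on depletion. Over all tested genes 9.4% were higher on depletion and 2.6% lower on overexpression. Among 48 tested G2 and mitosis genes 45 rose on depletion and none was called on overexpression, and 1 was higher in both by DESeq2, 0 by limma voom and 1 at an unadjusted p under 0.05. Of 52 E2F and replication genes 45 rose on depletion and 2 fell on overexpression, of 39 MYC targets 32 and 2, and of 37 ATF4 and CHOP stress genes 30 and 9, of which 7 were called in both with opposite signs. None of these 3 lists had a same-direction gene by DESeq2, by limma voom or at an unadjusted p under 0.05. The 25 tested genes of the SAGA complex and its partners had none by edgeR, 1 lower by DESeq2, 0 by limma voom, and 3 lower and 1 higher at an unadjusted p under 0.05. Of 13 tested protein-coding genes in mitochondrial DNA, 8 were higher on the joint contrast, against 6.52% of all tested genes. Their medians were 0.46 and 0.22, but none was called in both simple comparisons (2 higher at an unadjusted p under 0.05, and 0 by limma voom and DESeq2). Vector control replicate 3 had the smallest mitochondrial share, given above, and its part in those values was not tested. The preset genes MYC and CDKN1A did not move the same way: MYC had -0.06 on overexpression (edgeR adjusted p = 0.678; 0.0091 without vector control replicate 3) and 0.68 on depletion (1.78e-06), and CDKN1A had 0.10 (0.532; 0.22 and adjusted p = 0.00807 without vector control replicate 3) and -0.83 (2.76e-06).

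The control lines differed widely, which sets the level each response starts from. Between shRNA control and vector control 11211 genes differed (43% of tested genes), and among the same-direction genes this was so for 253 of the 345 lower ones, 129 with the shRNA control lower and 124 with it higher, and for 94 of the 125 higher ones, 45 and 49. This contrast uses the same control libraries as both responses and is given for the levels only. The lower genes thus held no common direction between the control lines. For 69 of the 345 the overexpressing cells, although lower than their own control, had a higher mean than the shRNA control, as in DDC and DPP4, and in 56 the depleted cells had a higher mean than the vector control. For the higher genes, 29 had an overexpression mean below the shRNA control and 22 a depletion mean below the vector control, as in UGT2B17.

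The same-direction genes shared some features that the rule did not name. Tests on counts pass more readily at higher levels, so level and gene type are not independent of the rule. Protein-coding genes made up 88.7% of the lower and 91.2% of the higher ones, against 57% of tested genes, whose median level was far lower (2.16 CPM, against 14.7 and 16.3 CPM). Among protein-coding genes alone the median level was 17.96 CPM for the lower and 17.7 CPM for the higher genes, against 22.95 CPM for all. The higher genes had a lower GC content than other protein-coding genes, with a median of 42% against 48.7% of all and 50% for the lower genes, and they spanned longer stretches of the genome, with a median of 77225 bases against 32359 for all and 49606.5 for the lower genes. Gene types, spans and GC content came from the GENCODE annotation by gene ID, and these shares are descriptions with no test.

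Just inside the rule were RGS1, a regulator of G protein signalling (edgeR adjusted p = 0.0499 on depletion), and the methyltransferase gene GNMT (0.0499 on overexpression). Just outside were SGSM3 (0.0502) and SFXN5 (0.0508), both on overexpression. RGS1 kept its call in 3 of the 12 fits without 1 library, those without vector control replicate 3, shRNA control replicate 3 or depletion replicate 3 (up to 0.246, without shRNA control replicate 2), and GNMT in 2, those without vector control replicate 1 or 2 (up to 0.193, without overexpression replicate 1). Neither was called on its own 6 libraries (0.0677 and 0.217). Without vector control replicate 3, GNMT had 0.0756, and SGSM3 (0.0341) and SFXN5 (0.0427) passed on overexpression.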

How the data were processed

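The authors deposited read counts per Ensembl gene for 12 libraries. Per the submitters' processing notes the tools were STAR 2.5.2a, featureCounts 1.5.0-p3 and DESeq2 1.14.1, and the build was hg19; the annotation release and the strand setting of the counting were not given in the labels or other sources used. Per the labels the library kit was stranded, for total RNA. Of 63677 gene IDs, 26076 passed edgeR's filter by expression, and 80.1% of these matched a symbol.

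Counts were scaled by TMM and fitted with edgeR 4.0.16 (quasi-likelihood, R 4.3.3) as 4 groups with 8 residual degrees of freedom. P-values were Benjamini-Hochberg adjusted over all tested genes, a standard error is the absolute log2 fold change over the root of F, and CPM values use TMM-scaled library sizes. The main edgeR fit and its rule were run on simulated counts, and the alternative fits were not. The simulation gave both controls the same level and all groups the same spread. It therefore cannot tell how the rule behaves with control lines that differ or with a library that stands apart. Read depth, 77607469 to 103690001 counts, leaves the spread between libraries as the main limit on precision. With 3 libraries against 3 an exact permutation test cannot go below 0.1, so none was used.

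Described genes were USP22, the first 14 in each direction by the smaller absolute log2 fold change (mean of at least 5 CPM, no overlap), up to 4 per list with at least 2 same-direction genes of 1 direction, 14 preset genes, and genes at the threshold; others are said to be chosen after their values were seen. The rule, the members and the 47 lists (1404 entries tested) were chosen with earlier results of these data known. Alternatives were RLE scaling, other filters and thresholds, DESeq2 1.42.0, limma 3.58.1 voom, each comparison on its own 6 libraries, a replicate block, no abundant genes and each library left out; voom with quality weights and protein-coding genes alone were added after seeing the data. Some genes that the rule covers are not reported here.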

Additional observations from a re-analysis of the deposited data

How the results depend on the processing

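Lower genes outnumbered higher genes under every alternative run. The count of same-direction genes was 470 (125 higher, 345 lower), with 4017 genes on the joint contrast. It stayed within 1.5 times under RLE scaling, limma voom, a floor of 1 CPM in 3 libraries, the removal of the 20 most abundant genes and protein-coding genes alone (498; 64.5% lower against 73.4%). Without a filter 254 genes were higher, and by DESeq2 199. On the own 6 libraries of each comparison the count was 201 (45 higher, 156 lower). At an adjusted p under 0.01 it was 230 (47, 183; joint 2135), and with at least 1.5-fold in each 175 (28, 147; joint 2211). Voom with quality weights, added after seeing the data, called 985 (301, 684; joint 6913), 466 of them among the 470. Leaving out 1 library gave 272 to 800 genes, 69 to 226 higher and 202 to 574 lower, and 2927 to 5915 on the joint contrast; the highest were without vector control replicate 3. With the replicate number as a block the count was 476, 434 of them among the 470. No pairing by number is stated, so the number was not taken as a pairing. Correlations of same-numbered libraries ran from -0.0988 to 0.378. Between vector control and overexpression they were -0.0988, 0.378 and 0.377 for replicates 1, 2 and 3. Libraries of different number were not compared, so these values cannot decide whether the numbers pair. Of the named genes, MYC on overexpression changed sign, from -0.06 to 0.0091 without vector control replicate 3 (edgeR adjusted p = 0.953) and to 0.00098 with quality weights (limma adjusted p = 0.992), with a range of -0.096 to 0.0091 over the fits without 1 library. The cause of these changes was not tested.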
